A study of Mus musculus with 32 samples.

Results

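The mRNA levels of the glucocorticoid receptor gene Nr3c1 and of 7 of its well-known target genes, Sgk1, Fkbp5, Tsc22d3, Per1, Klf9, Zbtb16 and Dusp1, were followed through 4 days of mouse retinal organoid differentiation in 4 kinds of culture. The 8 genes were taken by symbol from a table of 55492 rows, and all 8 were among the 16276 genes with values high enough to be tested. WT was the unmodified Rx:GFP line, untreated as embryonic stem cells at day 0 and grown with AGN at 0.1 µM as organoids at days 2, 4 and 6. KO was that line with Mettl3 knocked out, under the same treatment, Mettl3 being the gene of the RNA adenosine methyltransferase. The third and the fourth kind of culture were KO cells that overexpress wild-type METTL3 fused to a domain called GRBD, here called the fusion line, grown either without or with Dex. Dex is dexamethasone, a synthetic glucocorticoid. Dex was given at 10 µM, and the fusion cultures also had AGN at days 2, 4 and 6. All fusion cultures therefore lack the endogenous gene by label. Per the series' design text, the fusion protein is cytosolic without Dex and moves to the nucleus with it. The day 0 stem cells of the Dex group are labelled as Dex treated, while the treatment protocol lists only 2, 4 and 6 days of Dex. Each of the 16 groups had 2 libraries. No cells without the fusion were given Dex, so the response of these genes to Dex alone and to the relocated fusion protein cannot be told apart in these data.

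As background, the glucocorticoid receptor is a ligand-activated transcription factor. Without hormone it is held in the cytoplasm by a chaperone complex built around HSP90, with the immunophilins FKBP5 and FKBP4 as exchangeable parts. With hormone it moves to the nucleus, binds inverted repeats of a short sequence in DNA and raises or lowers the transcription of nearby genes. Its textbook induced targets include kinases, transcription factors and brakes on the pathway itself. Dex is a strong ligand of the endogenous receptor, and glucocorticoids act in many tissues, the eye included.

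The best-known DNA element of the receptor was searched for in the 250 bases upstream of the annotated starts of the targets, on both strands, in RefSeq windows of build GRCm38.p6. Windows were found for 6 of the 8 genes, 14 windows in all. The full inverted repeat, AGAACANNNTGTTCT, was in 3 of 32851 mouse windows (0.00913%), and 1 of these 3 belongs to Sgk1. That window is shown because it holds the full repeat. It was picked with the Dex values of Sgk1 known, so the match is no test of them. Sgk1 has 6 of the 14 windows, and use of this start was not measured. It lies upstream of the fifth of 6 Sgk1 starts, at chr10:21993640-21993889 on the plus strand, and holds no annotated Sgk1 exon. Capitals mark the full element at -189 to -175, counted from the start, and, at the 5′ end, an E-box (CACGTG) at -246 to -241 that overlaps a single arm of the repeat (AGAACA, here on the opposite strand) at -242 to -237.
Sgk1, start 5: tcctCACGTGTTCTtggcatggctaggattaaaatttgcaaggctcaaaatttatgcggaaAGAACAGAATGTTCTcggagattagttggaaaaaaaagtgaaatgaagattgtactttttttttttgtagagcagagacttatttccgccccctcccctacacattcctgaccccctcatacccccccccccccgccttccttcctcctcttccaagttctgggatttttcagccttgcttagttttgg

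Shorter matches in the other targets are shown as 30-base stretches, as examples of the motifs searched. They were found by their letters only, and whether they act on these genes was not tested. The single arm is common, with a match in 16.1% of windows, and Tsc22d3 has it upstream of its first start. E-boxes, the sites of the clock factors that drive Per1, were in 6.02% of windows, among them those of Per1, Fkbp5 and Dusp1. The cAMP response element TGACGTCA was in 1.55% of windows, Dusp1 among them. No match to the 4 motifs was found in the Klf9 window. Capitals mark the single arm in Tsc22d3, the E-box in Per1 and Fkbp5, and the cAMP response element followed by the E-box in Dusp1. A match is a description of the letters and was not linked to binding, which was not measured.
Tsc22d3, chrX:140600690-140600719, minus strand: ccgcattcgacaTGTTCTaagttctgagac
Per1, chr11:69098771-69098800, plus strand: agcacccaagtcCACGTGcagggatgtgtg
Fkbp5, chr17:28486301-28486330, minus strand: gcaagggccagaCACGTGggcagcggtgaa
Dusp1, chr17:26508589-26508618, minus strand: gggTGACGTCAccgcccggtCACGTGtctg

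Values are FPKM, fragments scaled by transcript length in kilobases and by mapped fragments in M (mega), computed by the authors, and depth was estimated at 28.3 M to 54.4 M fragments per library (median 37.3 M). Mettl3 mRNA was 34.88 to 43.83 FPKM in the libraries labelled KO and 32.51 to 41.21 in WT, so its level did not mark the knockout. It was 44.46 to 75.06 in the fusion line with Dex and 45.16 to 71.78 without. As a check of the labelled cell types, the summed level of 8 stem cell markers fell from between 3349.7 and 3661.4 FPKM at day 0 to between 234.3 and 421.1 at day 6. The 7 eye field and retina markers summed to between 21.3 and 33.6 FPKM at day 0. At day 6 they summed to between 754.1 and 788.9 in WT, to between 319.5 and 352.5 in KO and the fusion line without Dex, and to between 553.9 and 554.9 with Dex. The sum hides differences among these markers. Between Dex and no Dex at day 6, 5 of the 7 were called higher and 1 lower, as defined below. Rax stood at a mean of 54.7 FPKM with Dex and 0.91 without. Duplicates came from separate library preparations. The labels do not say if the cultures were separate, so p-values measure only the spread between these libraries, which may be technical. Changes below are differences of log2(FPKM + 1), with the standard error (SE) and the Benjamini-Hochberg adjusted p of limma over all tested genes, and a gene was called at an adjusted p under 0.05. The added 1 understates the change of genes at low levels, such as Nr3c1.

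**Figure D1:**
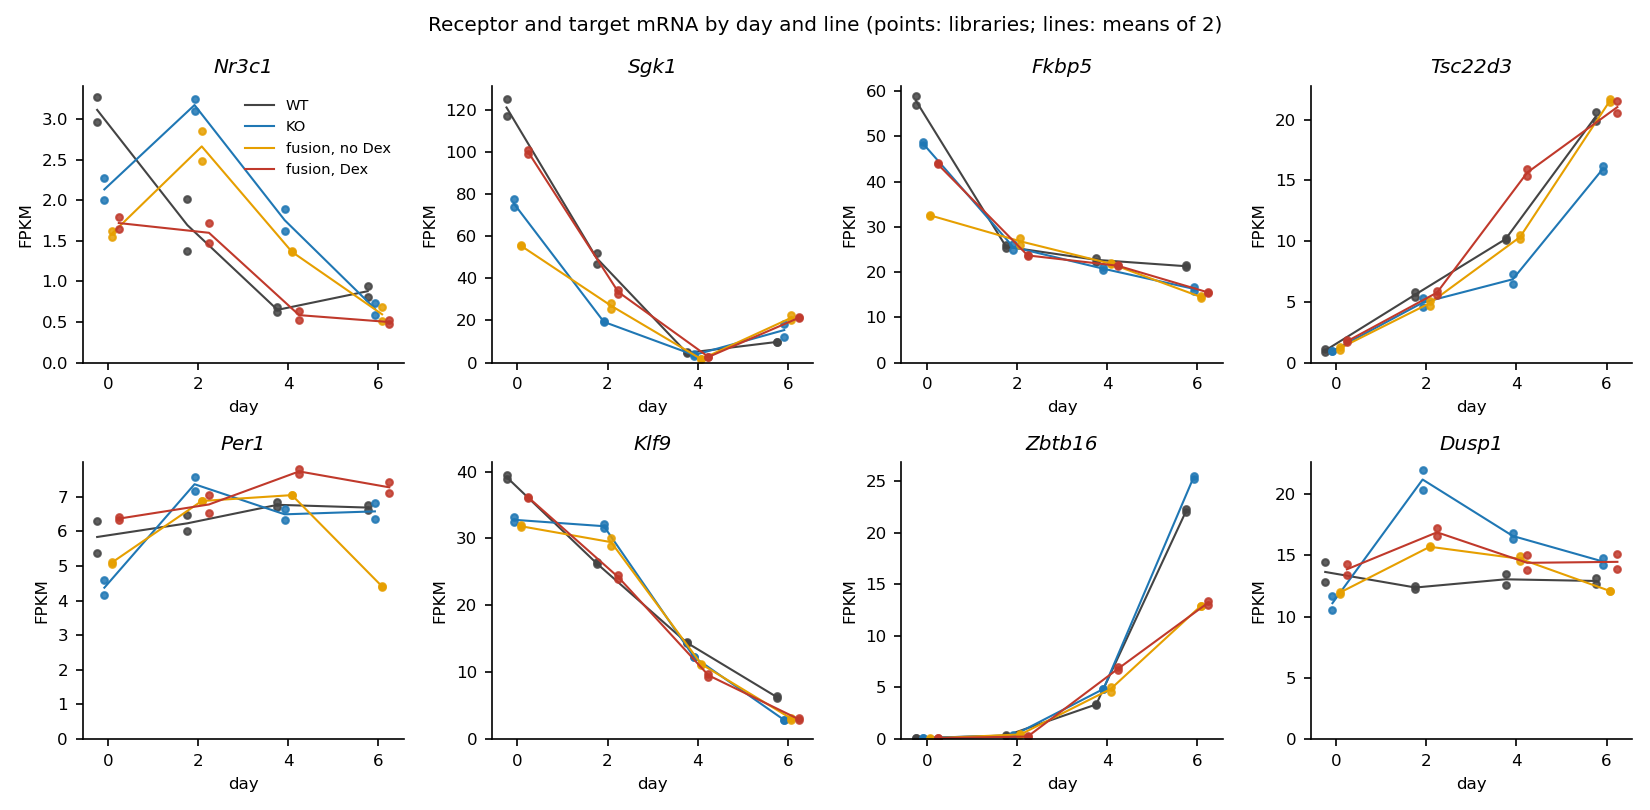
FPKM (y axis, from 0) of Nr3c1 and the 7 target genes against day (x axis); each point is 1 library, each line joins the means of the 2 libraries of a culture. Sgk1, Fkbp5, Klf9 and Nr3c1 end lower at day 6 than at day 0 in all 4 kinds of culture, and Tsc22d3 and Zbtb16 end higher; the Dex and no Dex points of Per1 lie apart at day 6, at 7.12 to 7.43 against 4.40 to 4.42.

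The receptor gene itself was low throughout. Nr3c1 ranged from 0.48 to 3.27 FPKM over the 32 libraries, which corresponds to about 110 to 1036 fragments per library. At day 2 it stood at 1.48 and 1.72 FPKM with Dex and at 2.48 and 2.85 without. At day 4 it stood at 0.64 and 0.53 with Dex and at 1.36 and 1.37 without. Both Dex libraries were below both libraries without Dex on each of these days. Nr3c1 was called lower with Dex at day 2, with a change of -0.49 (SE 0.09, adjusted p = 0.000298, n = 2 and 2, limma), and at day 4, with a change of -0.58 (SE 0.09, adjusted p = 6.81e-05). At day 0 and day 6 it was not called, with adjusted p-values of 0.59 and 0.511. At days 2 and 4 WT stood near the Dex values, at 1.37 and 2.02 FPKM on the earlier day and at 0.68 and 0.62 on the later. Nr3c1 was not higher in the fusion line than in KO at any day. At day 0 it was called lower in the fusion line without Dex than in KO, with a change of -0.28 (SE 0.09, adjusted p = 0.0207, limma), a call lost after rescaling (adjusted p = 0.0842), with the groups fitted alone (adjusted p = 0.0664) and without either library of the fusion line or the second KO library (adjusted p between 0.0537 and 0.155). Whether reads of the fusion transcript were counted to the row of Nr3c1 was not tested. Receptors for other steroids were low. Nr3c2, the mineralocorticoid receptor, Pgr, the progesterone receptor, and the estrogen receptors Esr1 and Esr2 did not pass the filter, with maxima between 0.05 and 0.79 FPKM.

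Dex against no Dex compared the fusion line with its own culture without Dex at each day. At day 0, in stem cells, 6 of the 8 genes were called higher with Dex and 0 lower. At day 2 the split was 2 higher and 4 lower, at day 4 it was 3 higher and 2 lower, and at day 6 it was 3 higher and 0 lower. No gene of the 8 was called higher at all 4 days. Against these counts stands a large background. At day 0, 43.4% of all tested genes were called, 27.3% higher and 16.1% lower. At day 2 the shares were 44.3%, 12.7% and 31.5%. At day 4 they were 40.2%, 18.3% and 21.9%, and at day 6 they were 42.7%, 23.8% and 19.0%. The direction of the calls over all genes depends on scaling, since the share of calls that were higher went from 62.9% to 51.3% at day 0 and from 28.7% to 46.8% at day 2 after median-of-ratios rescaling. Fitting each pair of groups alone ended the calls of Tsc22d3 and Dusp1 at day 0, of Fkbp5, Tsc22d3 and Zbtb16 at day 2, and of Dusp1 and Fkbp5 at day 6. In those fits calls over all 16276 tested genes fell as well. They went from 7069 to 4968 at day 0, from 7204 to 5190 at day 2 and from 6956 to 5151 at day 6. From the first to the last day, the median change of the 8 genes was 0.24, -0.09, 0.04 and 0.01, beside 0.04, -0.08, -0.01 and 0.01 over all tested genes.

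**Figure D2:**
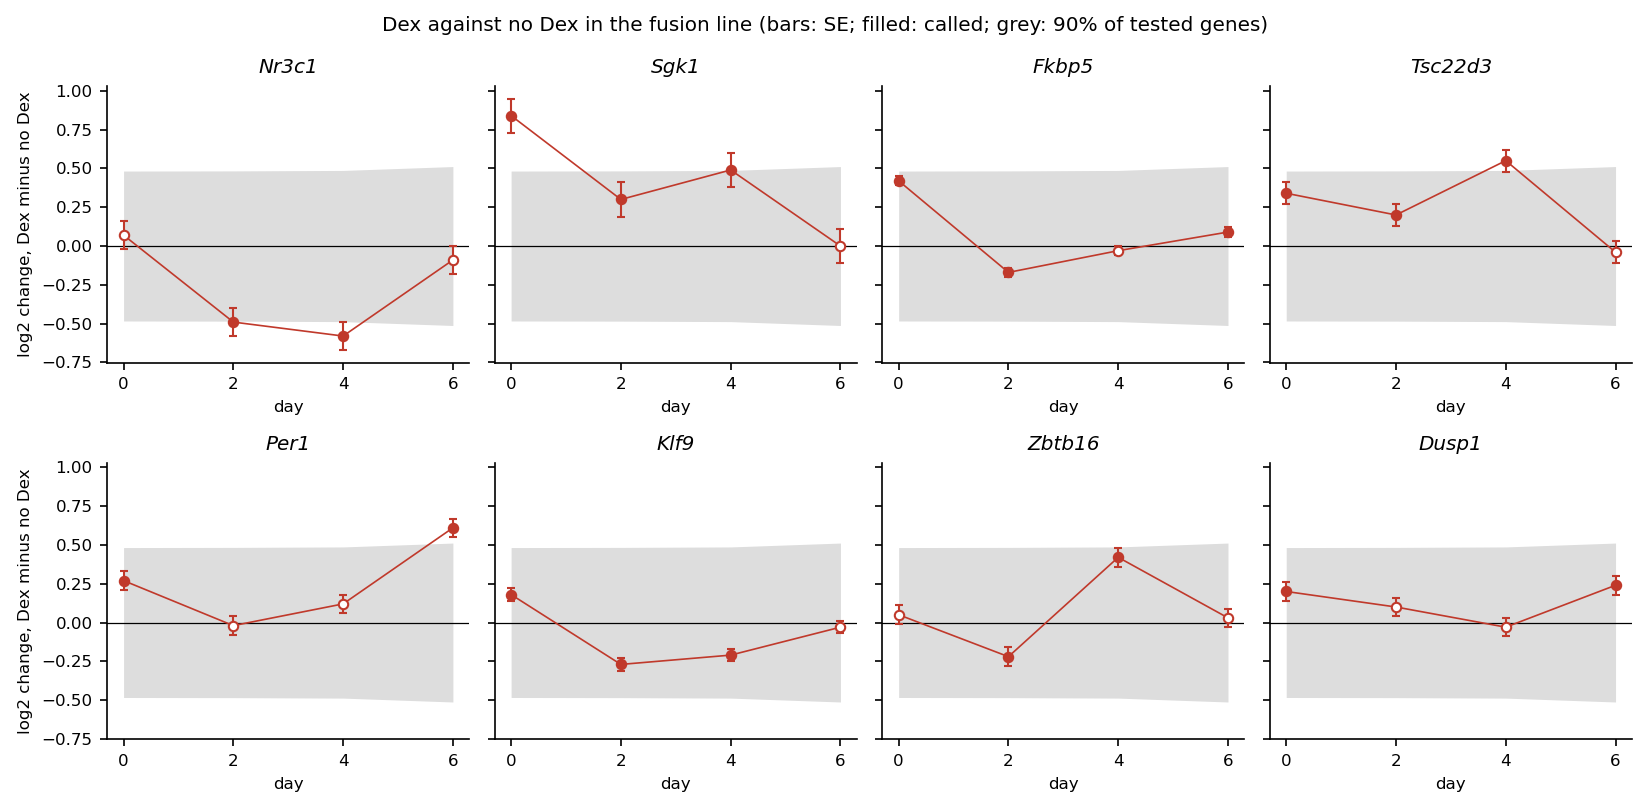
Change between Dex and no Dex in the fusion line (y axis, log2, Dex minus no Dex) at each day (x axis) for each gene, with bars of 1 SE; filled points were called, open points were not, and the grey band holds 90% of all tested genes by size of change. The day 0 point of Sgk1 (0.84), the day 4 points of Sgk1 (0.49), Tsc22d3 (0.55) and Nr3c1 (-0.58), the day 2 point of Nr3c1 (-0.49) and the day 6 point of Per1 (0.61) lie outside the band.

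Sgk1 encodes a kinase that regulates ion channels and cell survival and is among the fastest genes induced by glucocorticoids. In day 0 stem cells it stood at 99.18 and 100.83 FPKM with Dex and at 55.15 and 55.85 without. At day 2 the values were 34.41 and 32.61 with Dex and 28.43 and 25.55 without, and at day 4 they were 2.70 and 2.68 with Dex and 1.65 and 1.60 without. The Dex libraries were above those without Dex on all 3 days. At day 6 the Dex values of 21.02 and 21.44 lay between the 22.59 and 20.06 without Dex. The change was 0.84 at day 0 (SE 0.11, adjusted p = 5.76e-06, limma), 0.30 at day 2 (SE 0.11, adjusted p = 0.0342) and 0.49 at day 4 (SE 0.11, adjusted p = 0.00158). Ranked from the highest rise at day 0, Sgk1 was number 164 of the 16276 tested genes. The day 2 call was lost without the filter on low values (adjusted p = 0.0708) and without either Dex library or the second library without Dex (adjusted p between 0.067 and 0.214). The rise at day 0 did not carry Sgk1 past the cultures that never had Dex, since WT stood at 125.19 and 117.14 FPKM. KO stood between, at 73.74 and 77.51.

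Fkbp5 and Tsc22d3 are the targets used most often as readouts of receptor activity. Fkbp5 encodes the co-chaperone that lowers the receptor's affinity for hormone, a feedback brake. At day 0 it stood at 44.04 and 43.83 FPKM with Dex against 32.40 and 32.69 without, a change of 0.42 (SE 0.03, adjusted p = 1.11e-08, limma). At day 2 it was the reverse, with 23.89 and 23.51 against 27.66 and 25.96, a change of -0.17 (SE 0.03, adjusted p = 0.000464). The day 2 call was lost after rescaling, where the change was -0.07 (adjusted p = 0.0787). At day 4 Fkbp5 was not called, with 21.30 and 21.53 FPKM with Dex and 21.74 and 22.00 without. At day 6 a change of 0.09 (SE 0.03, adjusted p = 0.0394) was called from 15.69 and 15.35 against 14.76 and 14.27 FPKM. That call was lost after rescaling (adjusted p = 0.075), without the filter (adjusted p = 0.0554) and without any of 3 of the 4 libraries (adjusted p between 0.0642 and 0.234). Fkbp5 with Dex at day 0 was below the Dex-free WT at 56.90 and 58.93 and KO at 48.81 and 48.04.

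Tsc22d3 encodes GILZ, a leucine zipper protein that carries part of the anti-inflammatory action of glucocorticoids. At day 0 it stood at 1.83 and 1.66 FPKM with Dex and at 1.05 and 1.30 without, a change of 0.34 (SE 0.07, adjusted p = 0.0008, limma). At day 4 it stood at 15.33 and 15.96 with Dex and at 10.48 and 10.19 without, a change of 0.55 (SE 0.07, adjusted p = 4.99e-06). On both days the Dex libraries were above all 6 Dex-free libraries of the day, which reached at most 1.30 and 10.48 FPKM. At day 2 a change of 0.20 (SE 0.07, adjusted p = 0.0314) was called from 5.93 and 5.60 against 4.68 and 5.11. That call was lost with a pseudocount of 0.1 (adjusted p = 0.0769), without the filter (adjusted p = 0.0585) and without the first library of either group (adjusted p = 0.171 and 0.218). At day 6 the 20.54 and 21.54 FPKM with Dex overlapped the 21.73 and 21.45 without, and Tsc22d3 was not called (adjusted p = 0.746).

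Dusp1 encodes a phosphatase that switches off MAP kinases and is induced both by glucocorticoids and by growth factor signals. It ranged between 10.5 and 21.99 FPKM over all libraries. With Dex it stood at 13.40 and 14.30 FPKM at day 0 against 12.04 and 11.84 without, and at 13.85 and 15.07 at day 6 against 12.07 and 12.08. The changes were 0.20 (SE 0.06, adjusted p = 0.00995, limma) and 0.24 (SE 0.06, adjusted p = 0.00255). The day 0 call was lost after rescaling (adjusted p = 0.0671) and without the second library of either group (adjusted p = 0.0567 and 0.106), and the day 6 call without the second Dex library (adjusted p = 0.0504). At days 2 and 4 Dusp1 was not called, but after rescaling the day 2 change of 0.10 became 0.19 and was called (adjusted p = 0.0119). Several immediate early genes, which answer the same growth factor signals, moved in the same direction at day 6, with 9 of 14 tested called higher and 0 lower, beside 23.8% and 19.0% of all tested genes. Their part in the Dusp1 value was not tested.

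Per1, Klf9 and Zbtb16 are the transcriptional regulators among the targets. Per1 encodes a repressor of the circadian clock that glucocorticoids reset. At day 6 it stood at 7.12 and 7.43 FPKM with Dex and at 4.42 and 4.40 without, a change of 0.61 (SE 0.06, adjusted p = 4.1e-08, limma). This was the largest of its 4 daily changes, and here the culture without Dex was the one that stood apart, since WT held 6.75 and 6.63 FPKM and KO 6.81 and 6.35. At day 0 Per1 stood at 6.33 and 6.41 with Dex and at 5.06 and 5.13 without, a change of 0.27 (SE 0.06, adjusted p = 0.000502). Both Dex libraries of Per1 were above all 6 Dex-free libraries at days 0, 4 and 6, at day 0 by a narrow margin over a WT library at 6.30. At day 4 the change of 0.12 was not called (adjusted p = 0.104), nor was Per1 at day 2 (adjusted p = 0.825).

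Klf9 encodes a zinc finger repressor that glucocorticoids and thyroid hormone induce. It was called higher with Dex at day 0, with 36.22 and 36.08 FPKM against 32 and 31.64, a change of 0.18 (SE 0.04, adjusted p = 0.00106, limma). It was called lower at day 2, with 23.92 and 24.49 against 30.09 and 28.79, a change of -0.27 (SE 0.04, adjusted p = 1.62e-05). It was also called lower at day 4, with 9.79 and 9.27 against 11.14 and 11.27, a change of -0.21 (SE 0.04, adjusted p = 0.000239). On these later days the Dex libraries were below all 6 Dex-free libraries, whose lowest values were 26.12 and 11.14. At day 6 the groups overlapped and Klf9 was not called (adjusted p = 0.662).

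Zbtb16 encodes PLZF, a zinc finger factor of progenitor cells and one of the most strongly induced glucocorticoid targets in several human tissues. In stem cells it was barely detected, at 0.12 and 0.08 FPKM with Dex and 0.08 and 0.05 without, and it was not called there (adjusted p = 0.614). The lowest library held about 8 fragments, so a change in stem cells was not detectable at this depth unless large. At day 2 Zbtb16 was called lower with Dex, with 0.32 and 0.17 FPKM against 0.54 and 0.36 and a change of -0.22 (SE 0.06, adjusted p = 0.00877, limma). That call was lost without the first library without Dex or the second with Dex (adjusted p = 0.171 and 0.166). At day 4 it was called higher, with 6.95 and 6.66 against 5.09 and 4.61 and a change of 0.42 (SE 0.06, adjusted p = 3.22e-05). The day 4 call was lost with a pseudocount of 0.1 (adjusted p = 0.0611). At day 6 the 13.41 and 13.00 FPKM with Dex lay just above the 12.91 and 12.89 without, and the change of 0.03 was not called (adjusted p = 0.751).

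Set against all 6 Dex-free libraries of the day (WT, KO and the fusion line without Dex), few of the 8 genes stood apart. Both Dex libraries were above all 6 for Tsc22d3 and Per1 at day 0, 2 of 8 genes beside 6.84% of tested genes. None of the 8 was above all 6 at day 2, beside 5.89%. At day 4 Tsc22d3, Per1 and Zbtb16 were, 3 of 8 beside 11.9%, and at day 6 Per1 alone was, 1 of 8 beside 9.55%. Both Dex libraries were below all 6 for none of the 8 at day 0 (5.44% of tested genes), for Fkbp5 and Klf9 at day 2 (15.3%), for Klf9 at day 4 (11.9%) and for none at day 6 (11%). Sgk1, with the largest change at day 0, was never outside the Dex-free range, because WT was higher at days 0, 2 and 4 and the fusion line without Dex reached as high at day 6.

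Averaged over the 4 days, 7 of the 8 genes were called between Dex and no Dex, 5 higher and 2 lower, beside 50.1% of all tested genes, 23.8% higher and 26.3% lower. Sgk1 had a mean change of 0.41 (SE 0.06, adjusted p = 6.15e-06, limma), Tsc22d3 of 0.26 (SE 0.04, adjusted p = 5.85e-06) and Per1 of 0.25 (SE 0.03, adjusted p = 5.53e-07). Dusp1 followed with 0.13 (SE 0.03, adjusted p = 0.0014) and Fkbp5 with 0.08 (SE 0.02, adjusted p = 0.000822). Nr3c1 with -0.27 (SE 0.05, adjusted p = 9.08e-05) and Klf9 with -0.08 (SE 0.02, adjusted p = 0.0017) were called lower, and Zbtb16 with 0.07 was not called (adjusted p = 0.0826). These means hide days of opposite sign, since Fkbp5 and Klf9 were called higher at day 0 and lower at day 2.

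The difference between day 6 and day 0 in the effect of Dex was tested as an interaction. It was called for 5 of the 8 genes, beside 48.7% of all tested genes. The change at day 6 minus that at day 0 was -0.84 for Sgk1 (SE 0.16, adjusted p = 0.000201, limma), -0.37 for Tsc22d3 (SE 0.10, adjusted p = 0.00505), -0.33 for Fkbp5 (SE 0.05, adjusted p = 1.34e-05) and -0.20 for Klf9 (SE 0.06, adjusted p = 0.00508). The Klf9 call was lost with the 4 groups fitted alone (adjusted p = 0.0876). For Per1 the change was larger at day 6, with a difference of 0.34 (SE 0.08, adjusted p = 0.00143). Nr3c1, Zbtb16 and Dusp1 were not called. For Dusp1 both daily changes were called and the difference between them was 0.04.

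Markers of other cell types also differed between Dex and no Dex in the same libraries. At day 6 the 7 pigment epithelium markers summed to between 102.1 and 104.0 FPKM with Dex and to between 1.8 and 2.2 without, with Tyr at 0 in all libraries of both groups. The 6 neural crest markers summed to between 24.5 and 26.3 with Dex and to between 69.7 and 71.1 without, and the 6 neuron markers to between 146.2 and 147.6 against 245.7 and 248.0. Of the 6 neural crest markers, 4 were called lower with Dex at day 6 and 1 higher. All 6 neuron markers were called lower with Dex at day 6. Their sum was higher in day 0 stem cells, at 309.3 to 311.8 with Dex and 314.6 to 321.7 without, so it alone did not mark neurons. The 8 mesendoderm and endoderm markers summed to between 5.6 and 6.0 with Dex and to between 1.3 and 1.7 without. The 6 glia markers summed to between 84.7 and 88.0 with Dex and to between 74.6 and 75.5 without, with S100b at 0 in all libraries of both groups. Most of that glia sum was Glul, at a mean of 83.6 FPKM with Dex and 72.2 without, and Slc1a3, a further glia marker, was not called (adjusted p = 0.711, limma). At day 4 the 7 eye field markers summed to between 527.7 and 532.9 with Dex and to between 263.0 and 265.4 without. At day 0, where 6 of the 8 genes were called higher, the 8 stem cell markers summed to between 3638.6 and 3655.3 with Dex and to between 3349.7 and 3368.7 without, and the eye field markers to between 32.2 and 33.6 against 26.1 and 26.8. The stem cell markers did not move together, since Pou5f1 was called lower with Dex (-0.21, adjusted p = 0.00282, limma), at a mean of 920.5 FPKM against 1064, and Nanog and Zfp42 were not called. The part of these differences in the values of the 8 genes was not tested, and in bulk RNA fewer cells of a type and less RNA per cell cannot be told apart.

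The comparison of KO with WT asked how these genes differed with the label of the Mettl3 knockout and without Dex. At day 0 6 of the 8 genes were called and all 6 were lower in KO, beside 48.2% of all tested genes called and 29.8% called lower. At day 2 5 were called (58.9% of all), at day 4 7 (60.5%) and at day 6 6 (65.1%), with both directions present. Sgk1 had the largest changes among the 8 at days 0 and 2. It was lower in KO at day 0, with the values given above and a change of -0.67 (SE 0.11, adjusted p = 5.66e-05, limma). At day 2 it stood at 19.04 and 19.62 FPKM in KO and at 52.15 and 47.05 in WT, a change of -1.31 (SE 0.11, adjusted p = 6.24e-09). At day 6 it was higher in KO, with 18.53 and 12.37 against 9.97 and 9.66, a change of 0.58 (SE 0.11, adjusted p = 0.000144), although the KO libraries differed from each other more than on other days. The change was 0.31 without the first KO library of that day, and with the groups fitted alone the call was lost (adjusted p = 0.0922). The shift of the Sgk1 change from day 0 to day 6 was 1.25 (SE 0.16, adjusted p = 1.46e-06).

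Nr3c1 went the other way at the middle days. It stood at 3.10 and 3.25 FPKM in KO at day 2 and at 1.89 and 1.62 at day 4, above the WT values on both days, with changes of 0.64 (SE 0.09, adjusted p = 9.34e-06, limma) and 0.74 (SE 0.09, adjusted p = 1.41e-06). Dusp1 was higher in KO at day 2, with 21.99 and 20.36 FPKM against 12.46 and 12.27, a change of 0.73 (SE 0.06, adjusted p = 2.83e-09). Those 2 KO libraries held the highest Dusp1 values of all 32 libraries. Klf9 was lower in KO at day 6, with 2.91 and 2.78 FPKM against 6.40 and 6.13, a change of -0.92 (SE 0.04, adjusted p = 1.17e-13). The change of Fkbp5 at day 6 was -0.37 (SE 0.03, adjusted p = 1.41e-08), that of Tsc22d3 at day 4 was -0.51 (SE 0.07, adjusted p = 4.88e-06), and that of Zbtb16 at day 4 was 0.43 (SE 0.06, adjusted p = 9.81e-06). Between KO and WT at day 6 the 6 neuron markers summed to between 303.8 and 308.7 FPKM against 42.5 and 44.5, and the 6 neural crest markers to 80.9 against between 3.8 and 4.1. In day 0 stem cells the neuron markers summed to between 296.7 and 310.8 in KO and to between 336.1 and 339.8 in WT. The neuron sum alone therefore did not mark neurons. The part of the markers in the values of the 8 genes was not tested. The difference between day 6 and day 0 was called for 5 of the 8 genes, Sgk1, Tsc22d3, Per1, Klf9 and Dusp1, beside 56.9% of all genes. The call of Tsc22d3 was lost with a pseudocount of 0.1 (adjusted p = 0.0985) and without the second WT library of either day or the first KO library of day 6 (adjusted p between 0.056 and 0.119), and with the groups fitted alone those of Tsc22d3 and Per1 were lost (adjusted p = 0.0593 and 0.0626).

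The fusion line without Dex was compared with KO, the line it was made from. Called genes numbered 4 of 8 at day 0 (49.1% of all tested genes), 3 at day 2 (37.0%), 4 at day 4 (26.7%) and 6 at day 6 (49.0%). Zbtb16 at day 6 gave the largest change, with 12.91 and 12.89 FPKM without Dex and 25.53 and 25.21 in KO, a change of -0.92 (SE 0.06, adjusted p = 5.07e-10, limma). Sgk1 was lower without Dex at day 4, with 1.65 and 1.60 against 3.87 and 3.30. The change was -0.80 (SE 0.11, adjusted p = 2.97e-05, limma), number 97 from the lowest of all tested genes. Sgk1 was also lower at day 0, with a change of -0.44 (SE 0.11, adjusted p = 0.00285). It was higher at days 2 and 6, with a change of 0.46 on each (SE 0.11 each, adjusted p = 0.00318 and 0.00183). The day 6 change was 0.19 without the second KO library of that day. Fkbp5 was lower at day 0, with 32.40 and 32.69 against 48.81 and 48.04, a change of -0.56 (SE 0.03, adjusted p = 1.21e-10). Tsc22d3 was higher at day 4 by 0.53 (SE 0.07, adjusted p = 2.29e-05) and at day 6 by 0.41 (SE 0.07, adjusted p = 8.27e-05). For Per1 at day 6 the change was -0.49 (SE 0.06, adjusted p = 5.42e-07). These are differences without added Dex. For Sgk1 and Fkbp5 at day 0 and Per1 at day 6, the culture without Dex had the lowest mean of the 4 on the day that Dex against no Dex was called higher. The same held for Klf9 at day 0, Tsc22d3 at day 2, Sgk1 at day 4, and Fkbp5 and Dusp1 at day 6. It did not hold for Tsc22d3, Per1 and Dusp1 at day 0, Sgk1 at day 2, or Tsc22d3 and Zbtb16 at day 4. The comparison shares the libraries without Dex with Dex against no Dex, so its values are given side by side only.

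**Figure D3:**
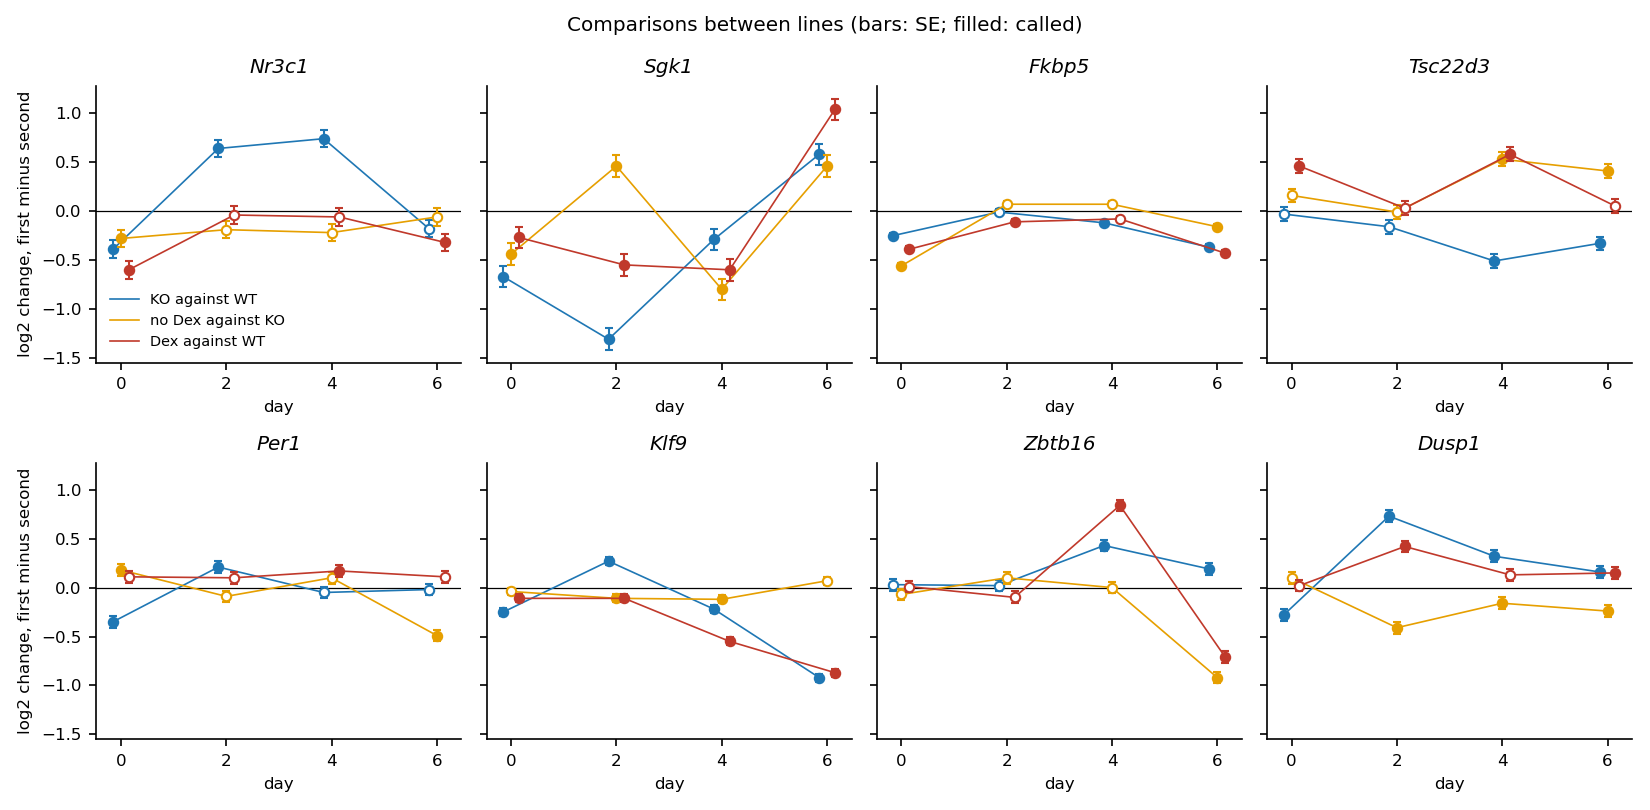
Changes between lines (y axis, log2, first minus second) at each day (x axis) for KO against WT, the fusion line without Dex against KO, and the fusion line with Dex against WT, with bars of 1 SE; filled points were called. Sgk1 spans the widest range, from -1.31 for KO against WT at day 2 to 1.04 for Dex against WT at day 6, and all 3 comparisons of Sgk1 are above 0 at day 6.

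The fusion line with Dex was compared with WT to see how far the genes lay from the unmodified line. Of the 8 genes 5 were called at day 0 (49.8% of all tested genes), 4 at day 2 (29.4%), 5 at day 4 (44.7%) and 6 at day 6 (61.4%). At day 6 Sgk1 was higher with Dex, with 21.02 and 21.44 FPKM against 9.97 and 9.66, a change of 1.04 (SE 0.11, adjusted p = 1.34e-07, limma). Klf9 was lower at day 6, with 2.81 and 3.14 FPKM against 6.40 and 6.13, a change of -0.87 (SE 0.04, adjusted p = 5.05e-13). Zbtb16 was higher at day 4, with 6.95 and 6.66 against 3.38 and 3.34, a change of 0.84 (SE 0.06, adjusted p = 3.23e-09), and lower at day 6, with 13.41 and 13.00 against 22.30 and 22.03, a change of -0.71 (SE 0.06, adjusted p = 1.18e-08). Nr3c1 did not differ beyond its spread at days 2 and 4 (adjusted p = 0.799 and 0.664, limma). It was lower with Dex at day 0, with a change of -0.60 (SE 0.09, adjusted p = 3.11e-05). At day 6 it was also lower with Dex, with a change of -0.32 (SE 0.09, adjusted p = 0.00594). That day 6 change was -0.27 without the second WT library of the day. Tsc22d3 was higher at day 0 by 0.46 (SE 0.07, adjusted p = 2.49e-05) and at day 4 by 0.58 (SE 0.07, adjusted p = 2.42e-06) and was not called at day 6 (adjusted p = 0.562).

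Over differentiation, Tsc22d3 and Zbtb16 rose and Sgk1, Klf9, Fkbp5 and Nr3c1 fell in all 4 kinds of culture. From day 0 to day 6, 7 of the 8 were called in WT (78.1% of all tested genes), 8 in KO (80.4%), 7 in the fusion line without Dex (81.9%) and 7 with Dex (80.4%). The largest rise among the 8 genes was that of Zbtb16 in KO, from 0.09 and 0.14 FPKM to 25.53 and 25.21, a change of 4.56 (SE 0.06, adjusted p = 6.06e-22, limma) that ranked 72 from the highest among tested genes. In WT it rose from 0.06 and 0.12 FPKM to 22.30 and 22.03, a change of 4.41 (SE 0.06, adjusted p = 1.48e-21) that ranked 69. In the fusion line it rose by 3.71 without Dex and by 3.69 with Dex (SE 0.06 each). Tsc22d3 rose by 3.42 in WT and 3.12 in KO, and in the fusion line by 3.38 without Dex and 3.01 with Dex (SE 0.07 each). In WT this was from 1.13 and 0.86 to 19.87 and 20.64 FPKM. Both rises were also called in WT and KO, which had no added Dex. The part of glucocorticoids from other sources in these rises was not tested.

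Sgk1 and Klf9 fell over the same days. On the log2 scale Sgk1 fell by 3.50 in WT and by 2.25 in KO, and in the fusion line it fell by 1.34 without Dex and by 2.18 with Dex (SE 0.11 each). The fall was not steady, since the lowest level in every culture was at day 4, between 1.60 and 4.88 FPKM, followed by 9.66 to 22.59 at day 6. Klf9 fell by 2.47 in WT, from 39.51 and 38.85 to 6.40 and 6.13 FPKM, and by 3.14 in KO, and in the fusion line it fell by 3.02 without Dex and by 3.23 with Dex (SE 0.04 each). Fkbp5 fell by 1.40, 1.51, 1.11 and 1.44 (SE 0.03 each) and Nr3c1 by 1.13, 0.91, 0.70 and 0.86 (SE 0.09 each) in the same order of cultures. All 8 libraries of each of these 4 genes at day 6 were below all 8 at day 0.

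Of the 8 genes, Per1 and Dusp1 changed least from day 0 to day 6 in each kind of culture. Per1 rose by 0.50 in KO (SE 0.06, adjusted p = 9.33e-08, limma) and by 0.17 in WT and with Dex (adjusted p = 0.00859 and 0.0102), and fell by 0.17 without Dex (adjusted p = 0.00818). The median change of all tested genes as deposited was 0.09 in WT and KO. In the fusion line it was 0.17 without Dex and 0.14 with Dex. Rescaling took these medians to 0. After rescaling the changes of Per1 in WT and with Dex were 0.06 and 0.01 and no longer called. The WT change was 0.08 without the second WT library of day 0 (adjusted p = 0.241) and 0.27 without the first, and the call with Dex was lost without the second Dex library of day 6 (adjusted p = 0.0753). As deposited, Dusp1 was called in KO, with a rise of 0.36 (SE 0.06, adjusted p = 1.45e-05), and was not called in WT or in the fusion line. After rescaling it was called lower in WT (-0.20, adjusted p = 0.00449) and in the fusion line without Dex, where a change of 0.02 became -0.20 (adjusted p = 0.00382). Whether its change in KO differed from that in WT was tested above as the interaction, which was called at 0.43 (SE 0.08, adjusted p = 0.000194).

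The wider pathway was read from lists of genes around the receptor. Counts for each list averaged over the 4 days stand beside 50.1% of all tested genes called in that comparison, 23.8% higher and 26.3% lower. Chaperones and co-chaperones of the receptor complex were all measured, and averaged over the 4 days 7 of 12 were called higher with Dex and 2 lower, with a median change of 0.07. Stip1, which hands clients from HSP70 to HSP90, rose by 0.23 (SE 0.01, adjusted p = 8.97e-13, limma), and Fkbp4, the immunophilin that competes with FKBP5 on the complex, by 0.21 (SE 0.01, adjusted p = 1.42e-10). Fkbp4 is among the abundant mRNAs here, at 565.2 ± 3.37 FPKM without Dex and 610.8 ± 5.54 with Dex at day 0 (mean ± SD, n = 2). Ptges3, the p23 co-chaperone, rose by 0.12 (SE 0.01, adjusted p = 7.34e-08). Of the 15 coregulators 4 were called higher and 5 lower, with a median of -0.02. Carm1, an arginine methyltransferase of the coactivator complex, rose by 0.25 (SE 0.02, adjusted p = 1.63e-10). Crebbp, an acetyltransferase coactivator, fell by 0.31 (SE 0.05, adjusted p = 1.61e-05) and Med1, a Mediator subunit that contacts nuclear receptors, fell by 0.19 (SE 0.04, adjusted p = 0.000298). By day, Crebbp was called only at day 6, with a change of -0.95 (SE 0.09). For the change averaged over the 4 days, the median of all tested genes was -0.01.

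Genes that inactivate or export steroids were sparse. Of 9, 6 passed the filter and 1 was called, Abcb1a, an efflux pump of which Dex is a substrate, with a mean rise of 0.21 (SE 0.04, adjusted p = 0.000247, limma) and a list median of 0.01. The Abcb1a change was in stem cells, where it stood at 16.2 ± 0.841 FPKM with Dex and 8.88 ± 0.311 without (mean ± SD, n = 2), a change of 0.80 (SE 0.08, adjusted p = 1.63e-07). It was not called at the other days. Hsd11b1, the enzyme that regenerates active glucocorticoid, did not exceed 0.06 FPKM in any library.

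Other genes known to be induced by glucocorticoids moved in both directions. Of 35, 29 passed the filter, and averaged over the days 11 were called higher and 7 lower, with a median of 0.05. The liver targets Tat and Pck1 did not exceed 0.09 FPKM. The 3 largest changes were all rises, of Gadd45b (0.56, SE 0.04, adjusted p = 5.46e-10, limma), a stress-induced regulator of growth arrest, and of the metallothioneins Mt1 (0.49, SE 0.02, adjusted p = 2.47e-13) and Mt2 (0.43, SE 0.03, adjusted p = 3.23e-10), which bind metal ions. At day 0 Mt1 stood at 449.2 ± 10.9 FPKM with Dex and 453.5 ± 6.41 without (mean ± SD, n = 2) and was not called (adjusted p = 0.827). At day 4 it stood at 639.6 ± 3.98 and 375.4 ± 10.1, and at day 6 at 234.5 ± 6.03 and 133.1 ± 3.51, both called, with changes of 0.77 and 0.81 (SE 0.04 each). By day, 13 of the 29 were called higher and 6 lower at day 0, 3 and 10 at day 2, 7 and 9 at day 4, and 13 and 4 at day 6. The shares of all tested genes called higher and lower were 27.3% and 16.1% at day 0, 12.7% and 31.5% at day 2, 18.3% and 21.9% at day 4, and 23.8% and 19.0% at day 6.

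**Figure D4:**
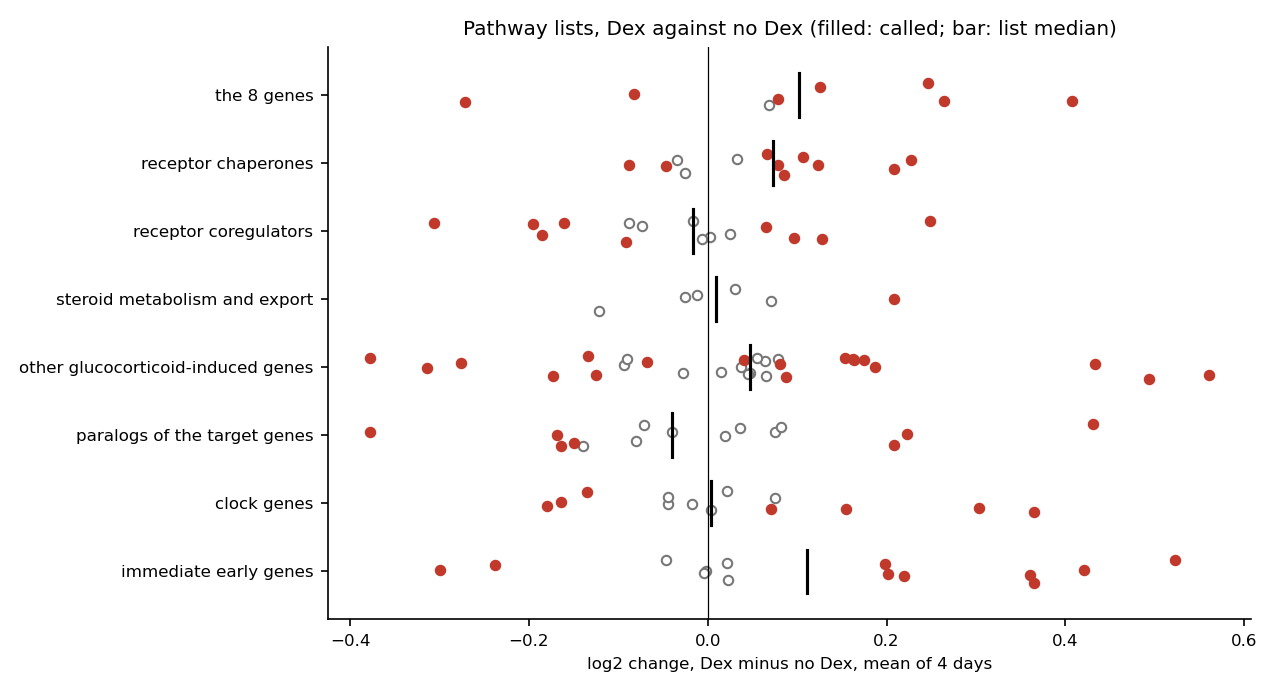
Change between Dex and no Dex averaged over the 4 days (x axis, log2) for each tested gene of the pathway lists (rows); filled points were called, open points were not, and the black bar is the list's median. The list medians lie between -0.04 and 0.11, beside -0.01 for all tested genes, and each list but the steroid metabolism genes holds called genes on both sides of 0.

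Paralogs of the targets, clock genes and immediate early genes were read for the families of Dusp1, Per1 and Klf9. Of 15 tested paralogs 3 were called higher and 4 lower (median -0.04). Dusp5, a phosphatase for nuclear ERK, rose by 0.43 (SE 0.03, adjusted p = 2.24e-10, limma), Tsc22d1 rose by 0.22 (SE 0.02, adjusted p = 1.69e-07), and Klf13 fell by 0.38 (SE 0.05, adjusted p = 1.7e-06). Of 13 clock genes 4 were called higher and 3 lower (median 0.00), with Bhlhe41, a clock repressor, at 0.37 (SE 0.04, adjusted p = 1.1e-06), Arntl, which encodes the activator BMAL1, at 0.30 (SE 0.03, adjusted p = 1.04e-08) and Ciart, a further repressor, at -0.18 (SE 0.05, adjusted p = 0.00495). By day, Ciart was called only at day 4, with a change of -0.76 (SE 0.1). At day 6, where Per1 was called higher, 5 of the 13 clock genes were called higher and 0 lower, beside 23.8% and 19.0% of all tested genes. Of 14 immediate early genes 7 were called higher and 2 lower (median 0.11). Fos rose by 0.52 (SE 0.05, adjusted p = 6.06e-08), Jun by 0.42 (SE 0.03, adjusted p = 9.05e-10) and Junb by 0.36 (SE 0.04, adjusted p = 8.68e-07). Fos at day 6 stood at 2.81 ± 0.163 FPKM with Dex and at 0.63 ± 0.0566 without (mean ± SD, n = 2).

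The 8 genes did not move as 1 group across the 16 group means. Klf9 and Zbtb16 were the most opposed pair, with a Pearson r of -0.96 over the 16 group means of log2(FPKM + 1), which share day and line. Tsc22d3 ran with Zbtb16 (0.89) and against Fkbp5 (-0.92) and Klf9 (-0.89), and Nr3c1 ran with Klf9 (0.84) and Fkbp5 (0.72). Per1 and Dusp1 ran together at 0.67 and showed little relation to Klf9 (-0.11 and 0.10). These values describe the profiles and carry no test.

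In the order of group means, Sgk1 was highest in WT at day 0 and lowest in the fusion line without Dex at day 4, and only 1 of its 15 pairs of neighbours overlapped. Fkbp5 and Klf9 were both highest in WT at day 0, with 3 of 15 neighbouring pairs overlapping each. Fkbp5 was lowest without Dex at day 6 and Klf9 in KO at day 6. Zbtb16 was highest in KO at day 6 and Tsc22d3 in the fusion line without Dex at day 6, with 7 and 8 overlapping pairs. For Per1 the highest mean was with Dex at day 4 and the lowest in KO at day 0, with 10 of 15 neighbours overlapping. Dusp1 and Nr3c1 were both highest in KO at day 2, with 8 overlapping pairs each, and lowest in KO at day 0 and with Dex at day 6.

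The genes with the most similar profile over the 16 group means were, for Sgk1, Slc25a12 (Pearson r 0.959) and Wsb2 (0.942), for Klf9, Tmem8 (0.99) and L1td1 (0.989), and for Fkbp5, Atg14 (0.983) and Eed (0.98). Zbtb16 was closest to Col2a1 (0.993) and Loxl3 (0.992), Tsc22d3 to Hmgb3 (0.986), and Nr3c1 to Anxa8 (0.947) and Birc3 (0.942). Per1 and Dusp1 had less close neighbours, Gak (0.904) and Bbc3 (0.857) for Per1 and Jag2 (0.875) and Hs3st6 (0.854) for Dusp1. These are descriptions over 16 points, ranked among 16276 genes.

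Positions of the genes were read from GENCODE M21 (GRCm38). Sgk1 (ENSMUSG00000019970) spans chromosome 10, 21882184 to 21999903, on the plus strand, with 13 transcripts. Tsc22d3 (ENSMUSG00000031431) spans chromosome X, 140539528 to 140600659, minus, Per1 (ENSMUSG00000020893) chromosome 11, 69095217 to 69109960, plus, and Zbtb16 (ENSMUSG00000066687) chromosome 9, 48654297 to 48836222, minus. Klf9 (ENSMUSG00000033863) spans chromosome 19, 23141226 to 23168134, plus, and holds Mir1192. Fkbp5 (ENSMUSG00000024222), chromosome 17, 28399094 to 28517527, minus, and Dusp1 (ENSMUSG00000024190), chromosome 17, 26505590 to 26562128, minus, overlap 4 annotated genes each, among them Ergic1 on the opposite strand of Dusp1. Nr3c1 (ENSMUSG00000024431) spans chromosome 18, 39410545 to 39519421, minus. Whether counting used the strand is not given in the sources used here, so reads of overlapping genes may be shared with Fkbp5 and Dusp1.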

How the data were processed

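Polyadenylated RNA of 32 libraries was sequenced as paired-end reads, per the labels' protocols. The authors deposited FPKM values, rounded to 2 decimals, and the submitters' processing notes name STAR, Cuffdiff and the build mm10, with no versions. The table held 55492 rows, of which 21161 were at 0 in every library. To estimate depth, low FPKM of 12540 single-transcript genes were read as multiples of 1 fragment, with an effective length shortened by 280 to 310 bases. By library, 83.0% to 92.0% of these values came within 0.2 of whole numbers of fragments (40.0% for evenly spread values). On 2 kb, 3 fragments correspond to between 0.032 and 0.063 FPKM, which covers counting error only. FPKM were not converted to counts, and no count test was run.

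Tests used limma 3.58.1 in R 4.3.3 on log2(FPKM + 1) with an empirical Bayes trend, in a single fit of the 16 group means over all 32 libraries (16 residual degrees of freedom), for genes with at least 1 FPKM in at least 2 libraries. P-values are two-sided and were Benjamini-Hochberg adjusted over all 16276 tested genes in each comparison. The procedure was tested on simulated data. Correlations of profiles use the 16 group means. Promoter windows come from RefSeq (GRCm38.p6) and positions from GENCODE M21 by gene ID, which matched 99.5% of rows. Named genes are the 8 genes in every comparison, up to 3 called genes of each other list with the largest mean change between Dex and no Dex, the 2 genes most like each of the 8 in profile, and Mettl3. Some genes within this rule or the lists are not reported here. The genes and lists were chosen with earlier results of these data known. Alternatives were a pseudocount of 0.1, no filter, median-of-ratios rescaling, no trend, a replicate block, the compared groups alone, and leaving out each library.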

Additional observations from a re-analysis of the deposited data

Results flagged for a closer look

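The effect of Dex differed between day 6 and day 0 for 5 of the 8 genes, beside 48.7% of all tested genes, by the interaction term of the limma fit. The change at day 6 minus that at day 0 was -0.84 for Sgk1, -0.33 for Fkbp5, -0.37 for Tsc22d3 and -0.20 for Klf9, and it was 0.34 for Per1. Of these 5 genes, Per1 was the one whose change was larger at day 6 than at day 0. The Klf9 call was lost with the 4 groups fitted alone (adjusted p = 0.0876, limma).

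The difference between KO and WT also changed from day 0 to day 6 for 5 of the 8 genes, beside 56.9% of all tested genes, by the same kind of term. The change at day 6 minus that at day 0 was 1.25 for Sgk1, 0.43 for Dusp1 and 0.32 for Per1, and it was -0.30 for Tsc22d3 and -0.67 for Klf9. Sgk1 was lower in KO at day 0 and higher at day 6. With the groups fitted alone the calls of Tsc22d3 and Per1 were lost (adjusted p = 0.0593 and 0.0626, limma). That of Tsc22d3 was also lost with a pseudocount of 0.1 (adjusted p = 0.0985).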

How the results depend on the processing

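Of the 184 gene-by-comparison results for the 8 genes, 127 were called and none of these reversed under the alternatives run. Calls were lost for 29 with the compared groups fitted alone, 15 after rescaling, 9 with a pseudocount of 0.1, 9 without the filter, 2 without the trend and 63 in fits without 1 library, beside 569 such fits that kept the call. Of the 57 uncalled results 12 became calls after rescaling and 2 with a pseudocount of 0.1, as did uncalled results in 12 fits without 1 library. After rescaling 7 of the 57 changed sign, and 32 fits without 1 library changed the sign of an uncalled result. Fitting the groups alone also lowered the calls over all 16276 tested genes for Dex against no Dex. Those calls went from 7204 to 5190 at day 2 and from 6956 to 5151 at day 6. With the groups alone, the number of the 8 genes called was 3 for Dex against no Dex at day 2, 1 at day 6, 3 for KO against WT at day 0, 2 for no Dex against KO at day 0 and 2 at day 4, 2 for Dex against WT at day 2, and 3 for the change of KO against WT from day 0 to day 6. With a pseudocount of 0.1 it was 2 for no Dex against KO at day 4, and after rescaling 2 for Dex against WT at day 2. Leaving out 1 library gave 1 to 3 for Dex against no Dex at day 6, 2 to 4 for no Dex against KO at day 0 and 2 at day 4, 3 to 4 for Dex against WT at day 0 and 2 to 3 at day 2. The list counts were recomputed after seeing the data, and the called steroid metabolism genes numbered 2 without the filter and 1 to 2 without 1 library. The numbers shared by replicates did not pair libraries, since the differences between duplicates correlated between groups at -0.088 to 0.125 over 120 pairs. With the replicate block 1 of the 127 calls was lost, Dusp1 in no Dex against KO at day 4 (-0.16, adjusted p = 0.0567, limma), and 1 uncalled result became a call. Depth limits Zbtb16 in stem cells, where the lowest library held about 8 fragments. Nr3c1 held about 110 or more in every library, and the added 1 understates its changes at its low day 6 levels.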
